A study of Drosophila melanogaster with 18 samples.

Results

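The glutathione S-transferase (GST) genes were followed in fat body RNA of Drosophila melanogaster larvae, a tissue of storage and intermediary metabolism comparable to liver and adipose tissue. The members were all genes whose symbol is Gst followed by a class letter (D, E, O, S, T or Z) and a number, which gave 35 of the 17575 genes in the tables. They comprised 11 delta, 14 epsilon, 3 omega, 1 sigma, 4 theta and 2 zeta genes. The rule itself reads symbols only, but the family was selected on the log2 fold changes of its members in both knockdown contrasts. The differences and adjusted p-values of the members in those contrasts are therefore a description of where each gene lies in the fit across all transcripts, and not evidence about the family.

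GST enzymes join the tripeptide glutathione to reactive, electrophilic molecules, which makes them more soluble and easier to excrete. In insects the delta and epsilon classes have expanded by tandem duplication and are known for the metabolism of insecticides and plant toxins. The omega, sigma, theta and zeta classes also occur in vertebrates, and the zeta enzyme carries out a step of tyrosine breakdown.

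Total poly(A) RNA was sequenced from 4 groups of 3 libraries. A control that carried the driver and no RNAi transgene (dcg-Gal4/+, labelled w1118) was compared with libraries labelled 4EHP RNAi, of genotype dcg-Gal4/uas-4EHP RNAi. The controls came from a cross to the w1118 strain, and the study states that its lines were not backcrossed to a shared parental strain. Libraries labelled NELF-E RNAi (dcg-Gal4/uas-NELF-E RNAi) were set against lacZ RNAi (dcg-Gal4/uas-lacZ RNAi), a hairpin against a bacterial gene. All groups shared the dcg-Gal4 driver, which is active in the fat body, and each sample was a pool of dissected larvae. Another 6 libraries (TRIBE) expressed 4EHP, a cap-binding protein, fused to the RNA-editing domain of ADAR, 3 with the 4EHP-ADAR fusion and 3 with a fusion of a 4EHP mutant that does not bind the cap. The NELF-E RNAi crosses were reared at a lower temperature than the other crosses by the methods given, and knockdown of either gene in the fat body delayed development, so genotype, strain background, rearing and stage cannot be told apart.

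The libraries held 59919651 to 92604208 reads on genes in the 4EHP table and 120900452 to 173606468 in the NELF-E table. Levels are in CPM, the usual depth-scaled read count, in which the reads of a gene are set relative to all reads on genes in its library. Control replicate 3 stood apart, with 7853 genes above 1 CPM against 10370 to 10719 in the other 5 libraries of its table. The targeted transcripts did not check the labels. eIF4EHP had a log2 fold change of −0.28 (SE 0.36, adjusted p = 0.725, limma) and Nelf-E one of −0.12 (SE 0.25, adjusted p = 0.782, limma). eIF4EHP was at 26.6, 21.3 and 5.55 CPM in the controls, lowest in replicate 3, and at 21.4, 14.8 and 18.1 CPM with 4EHP RNAi. Nelf-E was at 38.6, 12.8 and 20.7 CPM with lacZ RNAi and at 33.6, 35.0 and 32.3 CPM with NELF-E RNAi. These are RNA levels, whereas the study blotted NELF-E protein, with NELF-E RNAi samples included. Fat body markers were abundant in all 12 libraries, with a summed level of 145917 to 370181 CPM over 7 genes. Markers of other tissues were also present. The summed level of 7 testis genes was 34.3 CPM in control replicate 3 and 2468 to 3389 CPM in the other libraries of that table, and 530.0 to 3878 CPM in the NELF-E table.

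The 2 large classes lie in clusters. All 11 delta genes sit within 20.8 kb of chromosome 3R (dm6, 12364776 to 12385624), in the order GstD10, GstD9, GstD1, GstD2, GstD3, GstD4, GstD5, GstD6, GstD7, GstD8 and GstD11. The first 3 are annotated on the minus strand and the others on the plus strand. Of the epsilon genes, 10 sit within 13.2 kb of chromosome 2R (dm6, 18396638 to 18409835), with GstE10 on the minus strand followed by GstE1 to GstE9 on the plus strand. GstE11, GstE12, GstE13 and GstE14 lie alone elsewhere on 2R. GstO3, GstO2 and GstO1 share 6.0 kb of chromosome 3L with se, the omega-like gene of drosopterin eye pigment. Reads of close paralogs can be split between neighbours in a way the sources used here do not state. Exons of GstE1 and GstE10 overlap on opposite strands, as do those of GstE9 and imd, GstE12 and CG3894, GstE13 and CG18659, GstO2 and se, and GstT2 and CG12926. Whether strand was used in counting is not given in the sources used here, so these values are uncertain.

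Levels differed widely within each class. In CPM divided by a factor between libraries and by exon length in kb, GstD1 led the delta class, at 287 to 808 (median 738) in the lacZ RNAi libraries. GstD1 encodes an enzyme known for DDT metabolism, and a reporter made from it is widely used to read the oxidative stress regulator CncC. On the same per kb scale GstD9 and GstD10 had medians of 37.3 and 30.7, GstD3 20.7 and GstD4 9.63. GstD2, GstD5, GstD6, GstD7, GstD8 and GstD11 had medians between 0.0526 and 2.03 per kb in these libraries. In the epsilon class the medians per kb were 439 for GstE12 and 296 for GstE3, and their ranges over the 3 libraries overlapped. GstE4 was at the bottom of the family with a median of 0.0065 per kb. GstO3 led the omega class with a median of 322 per kb and GstT4 the theta class with 140. GstS1, the only sigma gene, whose enzyme is known to conjugate the lipid peroxidation product 4-hydroxynonenal, had a median of 296 per kb. GstZ1 had a median of 9.60 per kb and GstZ2 one of 0.134. In the control libraries of the other table the highest per kb medians were those of GstE3 (559), GstD1 (527) and GstS1 (263), and the ranges of GstE3 and GstD1 overlapped.

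The delta genes from GstD3 to GstD7 lay higher in the libraries of both knockdowns, with no overlap between groups. GstD6 was at 0.283, 0.455 and 0.584 CPM in the lacZ RNAi libraries and at 132, 239 and 200.2 CPM in those labelled NELF-E RNAi. It was at 0.210, 0.598 and 1.42 CPM in the control libraries and at 125, 84.0 and 70.4 CPM in those labelled 4EHP RNAi. The groups were far apart in both tables, and the ratio of geometric means after scaling was 259.8 for NELF-E RNAi and 107 for 4EHP RNAi. The lowest library behind these ratios held 17 reads of GstD6 in the 4EHP table and 43 in the NELF-E table.

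GstD3 was at 10.7, 12.7 and 11.3 CPM in the lacZ RNAi libraries and at 261, 66.6 and 382 CPM in those labelled NELF-E RNAi. In the 4EHP table it was at 24.0, 13.3 and 5.17 CPM in the controls and at 371, 230.0 and 539.6 CPM in the libraries labelled 4EHP RNAi. The groups did not overlap in either table, with ratios of geometric means after scaling of 9.68 and 20.2. Of the libraries labelled NELF-E RNAi, replicate 2, at 66.6 CPM, lay nearest to its comparison group.

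GstD4 was at 4.15, 3.49 and 6.33 CPM with lacZ RNAi and at 57.2, 57.3 and 80.9 CPM in the libraries labelled NELF-E RNAi. It was at 2.45, 8.94 and 7.15 CPM in the controls and at 52.2, 44.7 and 54.6 CPM in the libraries labelled 4EHP RNAi. GstD4 was the member of this stretch with the tightest knockdown groups. GstD5 was at 0.211, 0.259 and 0.280 CPM with lacZ RNAi against 6.68, 8.03 and 10.8 CPM, and at 0.754, 0.539 and 0.502 CPM in the controls against 16.5, 28.8 and 18.1 CPM. GstD7 was at 0.211, 0.098 and 0.211 CPM with lacZ RNAi against 1.92, 2.53 and 5.66 CPM, and at 0.260, 0.457 and 0.335 CPM in the controls against 4.91, 6.46 and 3.94 CPM. Both were low genes whose groups did not overlap in either table, with ratios of geometric means of 19.9 and 23.1 for GstD5 and of 11.0 and 9.74 for GstD7.

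**Figure D1:**
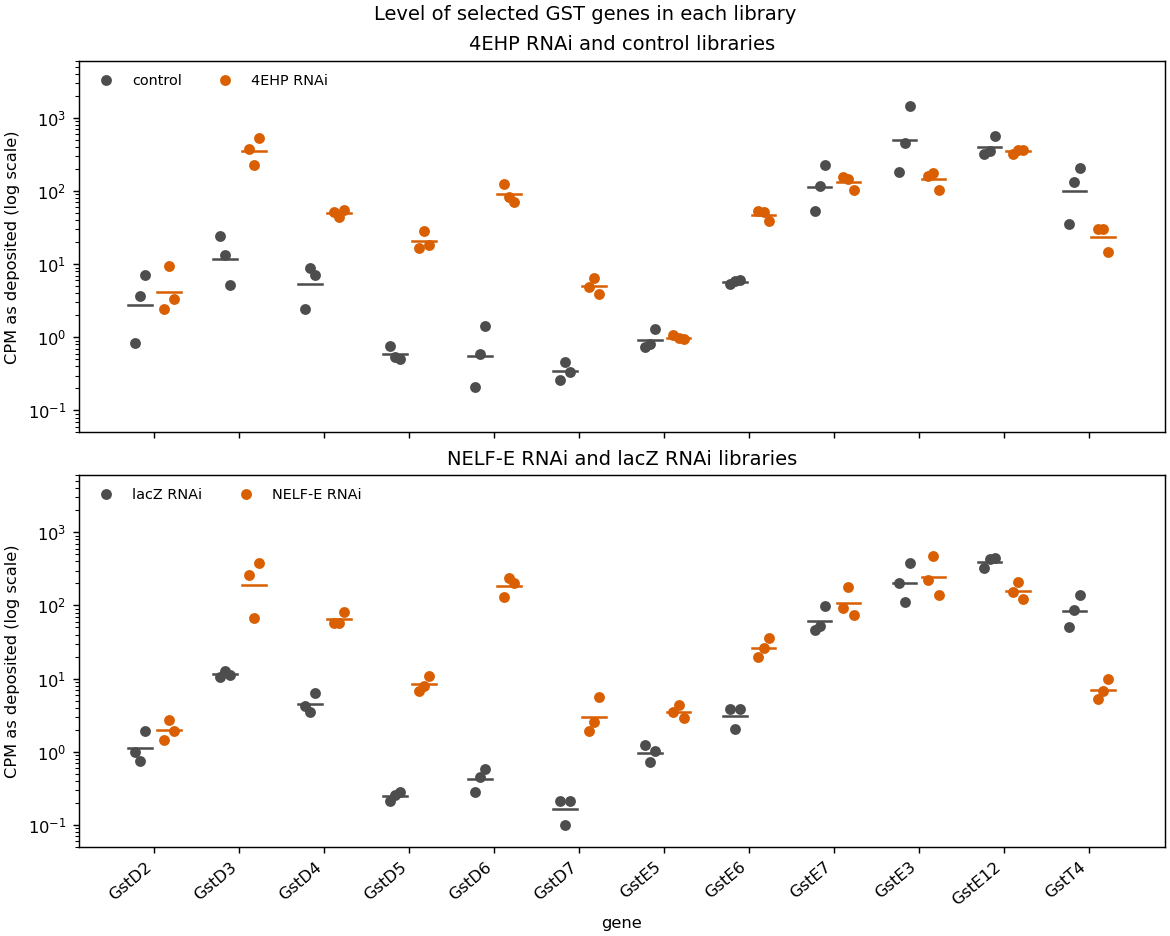
CPM as deposited (log axis) of 12 GST genes in each library of the 4EHP table (top) and the NELF-E table (bottom), with grey points for the comparison group, orange points for the libraries labelled RNAi and a short line at the geometric mean of 3 libraries. GstD3 to GstD7 and GstE6 lie apart in both panels, with GstD6 going from 0.283 to 0.584 CPM up to 132 to 239 CPM in the NELF-E table, while GstD2 and GstE7 overlap in the 4EHP panel and GstT4 lies lower in both.

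In the fit across all transcripts (limma on log2 of scaled CPM + 1, for genes averaging 5 CPM or more, Benjamini-Hochberg adjustment over all of them), 24 of the 35 members were tested for NELF-E RNAi. Of these 4 rose, against 1.99% of all 8371 transcripts tested, and 1 fell, against 2.45%. GstD6 rose by a log2 fold change of 6.46 (SE 0.34, adjusted p = 0.000313), which ranked 1 of 8371. GstD4 rose by 2.86 (SE 0.33, adjusted p = 0.00350) and GstD3 by 3.18 (SE 0.58, adjusted p = 0.0221). GstE6 rose by 2.07 (SE 0.28, adjusted p = 0.00687) and the theta gene GstT4 fell by 4.09 (SE 0.56, adjusted p = 0.00759), all on the log2 scale. edgeR's quasi-likelihood test on the recovered reads called the same 4 higher, against 2.23% of transcripts, and the same 1 lower, against 2.44%. GstD5 and GstD7 were below the minimum level of both tests. The call of GstD3 was lost without NELF-E RNAi replicate 1, without NELF-E RNAi replicate 3, without lacZ RNAi replicate 3 and with no filter on low levels, while its log2 fold change over all settings stayed between 2.78 and 3.92.

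For 4EHP RNAi, 25 members were tested and none was called by limma, where 0% of 8584 transcripts were called in either direction. At an unadjusted p under 0.05 there were 6 members and 850 transcripts. The log2 fold changes were 5.17 for GstD6 (SE 0.55, rank 3 of 8584), 4.23 for GstD3 (SE 0.45), 3.28 for GstD5 (SE 0.36), 2.38 for GstD4 (SE 0.65) and 2.28 for GstE6 (SE 0.45). GstD3, GstD5 and GstD6 each had an adjusted p of 0.0777 (limma), GstE6 one of 0.157 and GstD4 one of 0.278. The Wald test of DESeq2 on the recovered reads called 4 members higher (GstD3, GstD5, GstD6 and GstE6, against 2.39% of 8438 transcripts) and 2 lower (GstE3 and GstT4, against 2.1%). edgeR called 0 of the members and 0% of all transcripts. Without control replicate 3, limma called 7 members higher, against 5.25% of transcripts, and 0 lower, against 1.36%. Those 7 were GstD3, GstD4, GstD5, GstD6, GstD10, GstE6 and GstE13.

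**Figure D2:**
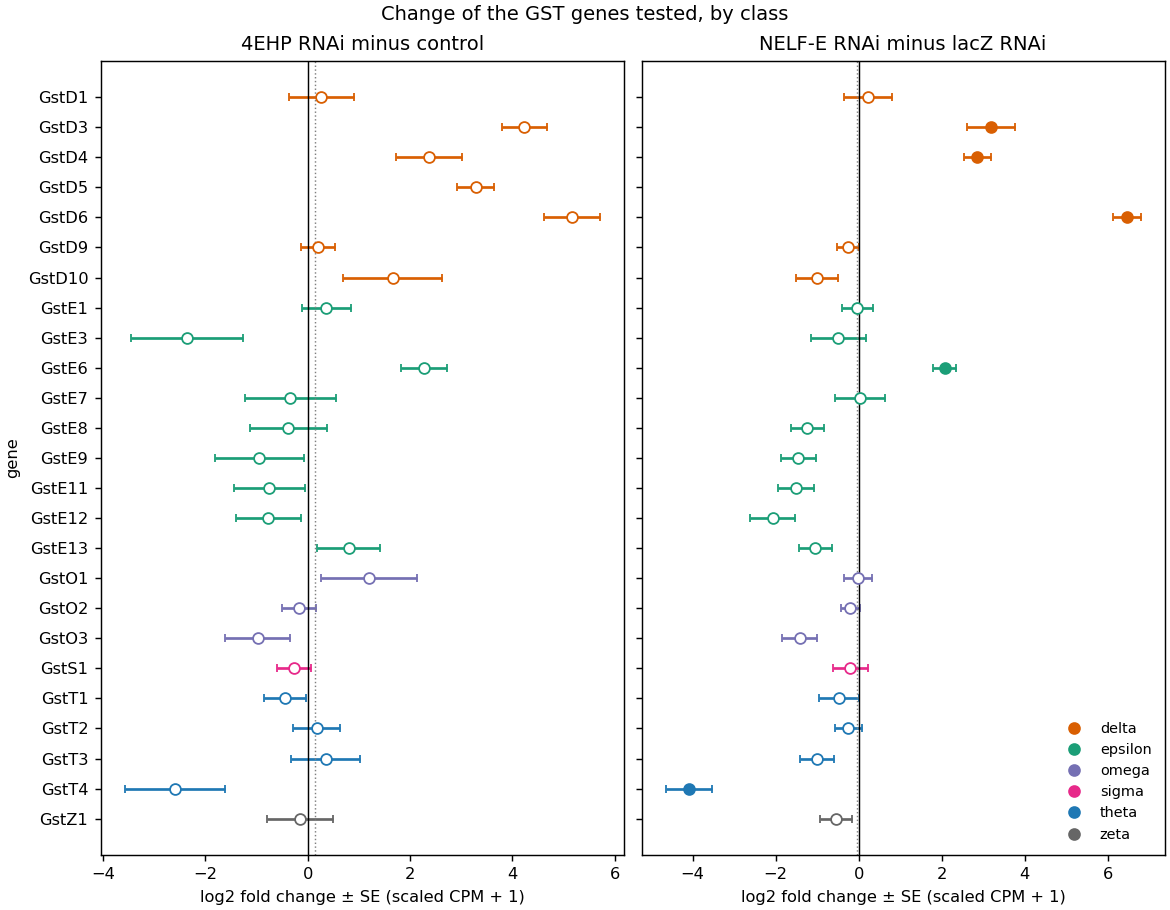
Log2 fold change with its standard error (limma, scaled CPM + 1) of each GST gene tested, coloured by class, for 4EHP RNAi (left, 25 genes) and NELF-E RNAi (right, 24 genes), with filled points for an adjusted p under 0.05 and a dotted line at the median of all transcripts tested. The 5 filled points, all on the right, are GstD3, GstD4, GstD6 and GstE6 above 0 and GstT4 at −4.09.

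The factor between libraries moved the median log2 fold change of all transcripts from 0.68 in CPM as deposited to 0.15 for 4EHP RNAi and from 0.65 to −0.05 for NELF-E RNAi. GstD3 to GstD7 and GstE6 lay above their comparison groups with no overlap on both scales, and GstT4 lay below on both. GstD1 did not. In CPM as deposited it was at 338, 476 and 592 in the controls and at 808, 1004 and 698 in the libraries labelled 4EHP RNAi. After scaling the groups overlapped, by control replicate 3 alone, whose factor was 0.49. The log2 fold change was 0.27 (SE 0.63), and −0.23 to 0.92 over all settings. GstD1 likewise changed from no overlap to overlap with scaling in the NELF-E table, where it was at 312, 340.1 and 454 CPM with lacZ RNAi and at 673, 1049 and 517 CPM in the libraries labelled NELF-E RNAi.

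The other delta genes overlapped between groups after scaling or were near 0. GstD2, next to GstD3, was at 0.994, 0.743 and 1.93 CPM with lacZ RNAi and at 1.43, 2.74 and 1.92 CPM in the libraries labelled NELF-E RNAi. In the 4EHP table it was at 0.828, 3.68 and 7.11 CPM in the controls and at 2.42, 9.34 and 3.34 CPM in the libraries labelled 4EHP RNAi. Its groups overlapped in both tables, and its ratios of geometric means were 1.03 and 1.01. GstD8, beyond GstD7, was at 0 to 0.207 CPM in all 12 libraries and GstD11 at 0 to 0.113 CPM. In the NELF-E table GstD8 was higher without overlap, with a ratio of geometric means of 3.36 on 3 to 25 reads a library. Its groups overlapped in the 4EHP table. GstD9 had ratios of 0.832 for NELF-E RNAi and 1.16 for 4EHP RNAi, with overlapping groups. GstD10, at the far end, was at 13.7, 18.6 and 70.6 CPM in the controls and at 153, 99.9 and 143 CPM in the libraries labelled 4EHP RNAi. The groups were apart as deposited and overlapped after scaling, by control replicate 3 alone, with a log2 fold change of 1.66 (adjusted p = 0.676, limma) that became 2.83 without that library (adjusted p = 0.00572, limma). With lacZ RNAi it was at 10.7, 19.3 and 19.6 CPM, against 12.6, 15.1 and 11.2 CPM in the libraries labelled NELF-E RNAi, which overlapped (log2 fold change −1.0, adjusted p = 0.323, limma). The nearest gene to the left of the cluster, Tim17a1, which encodes a mitochondrial import protein, had log2 fold changes of 1.28 (SE 1.14, adjusted p = 0.695, limma) and 0.48 (SE 0.38, adjusted p = 0.475, limma). Tim17a1 was at 32.4, 23.6 and 0.167 CPM in the controls, lowest in replicate 3, and at 27.5, 29.8 and 28.4 CPM in the libraries labelled 4EHP RNAi. In the NELF-E table it was at 41.1, 5.29 and 12.1 CPM with lacZ RNAi against 39.0, 23.7 and 39.1 CPM. No level was obtained under the symbol of the nearest gene to the right, Sol1, so that side of the cluster was not compared. CG10035, inside the cluster, was at 0 to 0.097 CPM in all 12 libraries.

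**Figure D3:**
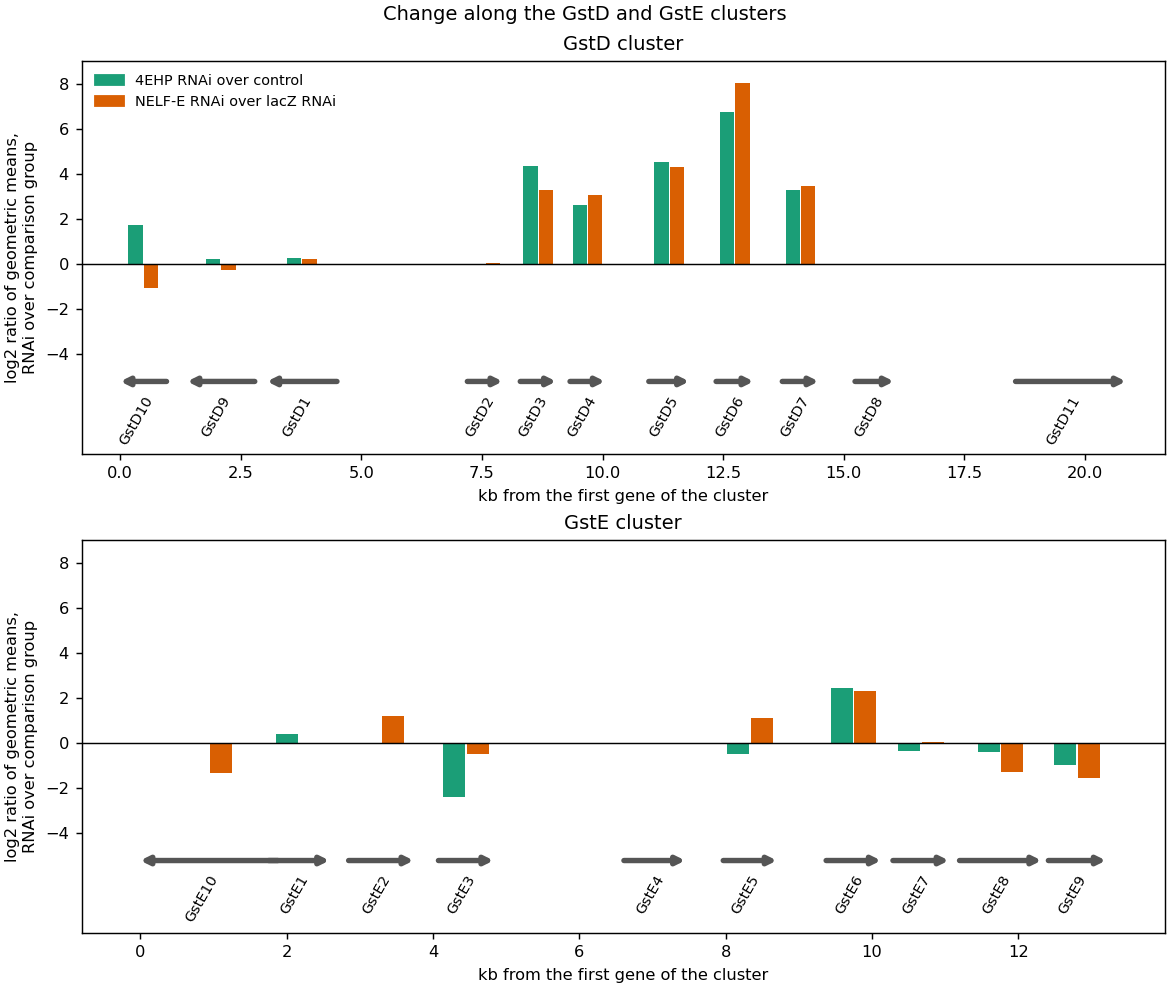
Log2 ratio of geometric means of scaled CPM (bars, 4EHP RNAi over control in green and NELF-E RNAi over lacZ RNAi in orange, 3 libraries a group) along the GstD cluster (top) and the GstE cluster (bottom), against kb from the first gene, with arrows for each gene's strand. No bar is drawn where a library held under 10 reads. The tall bars are GstD3 to GstD7, and in the lower panel both bars of GstE6 are above 0 while those of GstE8 and GstE9 are below.

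Ratios between neighbouring genes within a library do not depend on depth or on the factor. There were 34 such comparisons over 19 neighbour pairs with at least 10 reads in every library. The groups were apart in 16 of them. By the exact permutation test, which allows no p under 0.1 here, none had an adjusted p under 0.2125. Neighbouring genes outside the family were not compared in this way, so this count has no share over all genes beside it. They rest on the changes on which the family was selected and are given as a description. The ratio of GstD3 to GstD2 was 10.7, 17.1 and 5.84 with lacZ RNAi and 182, 24.3 and 199 in the libraries labelled NELF-E RNAi. In the 4EHP table the groups overlapped for this pair, at 29.0, 3.61 and 0.728 in the controls and 154, 24.6 and 161 in the libraries labelled 4EHP RNAi. The genes inside the stretch also differed in size of change. The log2 ratio of GstD6 to GstD5 was higher by 3.70 (SE 0.28) in the libraries labelled NELF-E RNAi and by 2.21 (SE 1.05) in those labelled 4EHP RNAi. That of GstD7 to GstD6 was lower in both, with differences of −4.57 (SE 0.67) and −3.46 (SE 0.76). The change of GstD6 thus exceeded that of both neighbours in both tables, by the least for GstD5 in the 4EHP table, where the groups were only just apart.

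The make-up of the summed GST reads moved with the delta genes. The delta class took 17.3% to 20.2% of the summed GST CPM with lacZ RNAi and 39.7% to 43.6% in the libraries labelled NELF-E RNAi. It took 16.9% to 19.9% in the controls and 41.9% to 45.2% in the libraries labelled 4EHP RNAi. These shares do not depend on the factor either, but they weight long genes more. GstD3 to GstD7 made up 3.59% to 4.39% of delta CPM with lacZ RNAi and 25.4% to 54.8% in the libraries labelled NELF-E RNAi, and 2.07% to 6.64% against 25.0% to 43.1% in the 4EHP table. Without those 5 genes the delta class still took 16.6% to 19.4% against 19.7% to 30.8% of the GST sum in the NELF-E table, and 16.6% to 19.1% against 25.6% to 31.4% in the 4EHP table. The whole family made up 0.202% to 0.418% of the reads of a library.

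**Figure D4:**
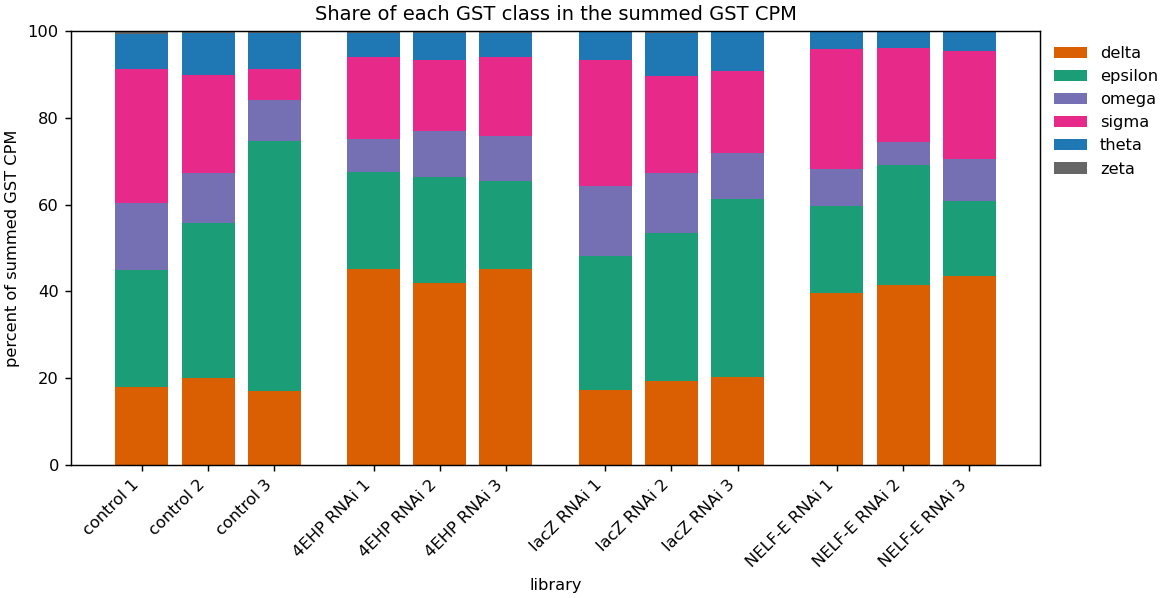
Percent of the summed GST CPM taken by each class in each of the 12 libraries. The delta segment is 16.9% to 20.2% in the control and lacZ RNAi libraries and 39.7% to 45.2% in the libraries labelled RNAi against 4EHP or NELF-E, and the epsilon segment is largest, at 57.7%, in control replicate 3.

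Among the epsilon genes only GstE6 was called higher by limma in a contrast. GstE6 was at 3.88, 2.05 and 3.84 CPM with lacZ RNAi and at 19.7, 26.1 and 35.5 CPM in the libraries labelled NELF-E RNAi. It was at 5.34, 5.81 and 6.05 CPM in the controls and at 53.0, 52.0 and 38.7 CPM in the libraries labelled 4EHP RNAi. The groups were well apart in both tables, by ratios of geometric means of 5.01 and 5.51 after scaling. GstE7, which starts next to it, was at 46.8, 52.3 and 97.0 CPM with lacZ RNAi and at 91.0, 178 and 75.0 CPM in the libraries labelled NELF-E RNAi, and at 53.0, 116 and 228 CPM in the controls against 154, 147 and 105 CPM. Its groups overlapped in both tables. The log2 ratio of GstE7 to GstE6 was lower by 2.29 (SE 0.61) in the libraries labelled NELF-E RNAi, and its difference was −2.80 (SE 0.56) in those labelled 4EHP RNAi. GstE5, on the other side, was at 1.22, 0.720 and 1.03 CPM with lacZ RNAi and at 3.52, 4.34 and 2.85 CPM in the libraries labelled NELF-E RNAi, but its groups overlapped after scaling in the 4EHP table, with a ratio of 0.712. The log2 ratio of GstE6 to GstE5 was higher by 2.95 (SE 0.23) in the libraries labelled 4EHP RNAi and by 1.21 (SE 0.39) in those labelled NELF-E RNAi. GstE5 was at 0.742, 0.820 and 1.31 CPM in the controls and at 1.07, 0.983 and 0.934 CPM in the libraries labelled 4EHP RNAi. GstE2 was at 0.290, 0.098 and 0.230 CPM with lacZ RNAi and at 0.744, 0.516 and 1.03 CPM in the libraries labelled NELF-E RNAi. Its groups did not overlap, with 17 to 145 reads a library and a ratio of 2.33, and it was below the level tested. In the 4EHP table it was at 0.940, 0.492 and 0.042 CPM in the controls and at 0.634, 0.410 and 0.238 CPM in the libraries labelled 4EHP RNAi, which overlapped. Flanking the cluster, Idgf5, which encodes a secreted chitinase-like growth factor, and Dp1, which encodes a KH-domain RNA-binding protein, had log2 fold changes from −1.32 to −0.38, none called by limma (adjusted p = 0.241 to 0.798). DESeq2 called Idgf5 lower for NELF-E RNAi (log2 fold change −1.58, adjusted p = 0.0156).

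Most other epsilon genes were lower or overlapped. GstE12 was at 324, 429 and 447 CPM with lacZ RNAi and at 152, 209 and 124 CPM in the libraries labelled NELF-E RNAi. Its groups did not overlap, with a log2 fold change of −2.07 (SE 0.55, adjusted p = 0.0811, limma). DESeq2 called 5 epsilon genes lower for NELF-E RNAi, GstE8, GstE9, GstE11, GstE12 and GstE13, by log2 fold changes from −1.33 to −2.16, and 8 of 25 members in all against 9.71% of 9342 transcripts. In the same test 5 members were called higher, against 3.37%. GstE8 was at 21.3, 21.8 and 34.1 CPM with lacZ RNAi and at 16.4, 17.0 and 18.3 CPM in the libraries labelled NELF-E RNAi. GstE9 was at 17.6, 17.2 and 31.3 CPM against 12.3, 7.57 and 19.3 CPM, which overlapped in CPM as deposited. GstE11 was at 7.50, 8.89 and 12.3 CPM against 4.21, 6.01 and 4.17 CPM, and GstE13 at 7.49, 7.81 and 14.3 CPM against 6.68, 6.11 and 8.90 CPM, which also overlapped in CPM as deposited. In the 4EHP table these 5 genes overlapped between groups after scaling. GstE8 was there at 21.8, 33.3 and 61.6 CPM in the controls and at 31.6, 58.1 and 37.5 CPM in the libraries labelled 4EHP RNAi, and GstE9 at 15.9, 25.1 and 59.5 CPM against 12.8, 38.1 and 21.8 CPM. GstE11 was at 6.39, 6.91 and 15.6 CPM against 5.64, 9.31 and 8.20 CPM, and GstE12 at 319, 352 and 558 CPM against 319, 369 and 363 CPM. All 4 were highest in control replicate 3. GstE13 was at 4.41, 5.82 and 9.25 CPM against 13.1, 24.1 and 17.6 CPM, apart as deposited.

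GstE3, an epsilon gene, varied widely within a group. The 3 controls held 184, 452 and 1452 CPM, in order of replicate number, against 163, 177 and 104 CPM in the libraries labelled 4EHP RNAi. All 3 controls were above all 3 knockdown libraries, but the lowest control was close to the highest of them. The log2 fold change was −2.36 (SE 1.09, adjusted p = 0.571, limma) and −3.41 by DESeq2 (adjusted p = 0.0281), where control replicate 3 weighed in with 1452 CPM. In the NELF-E table GstE3 was at 205, 112 and 378 CPM against 224, 478 and 139 CPM, and the groups overlapped. GstE14, known as Noppera-bo for its part in ecdysone synthesis in the prothoracic gland, was at 0.032 to 1.05 CPM in all 12 libraries, GstE4 at 0 to 0.126 CPM and GstE10 at 0.025 to 2.71 CPM. After scaling, the groups of the 4EHP table were apart for GstE14 (ratio of geometric means 0.139) and GstE10 (10.0). Their lowest libraries there held 3 and 2 reads, and the groups of both overlapped in the NELF-E table.

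GstT4, a theta gene on the X chromosome, had the largest fall by limma in both contrasts among the members tested. It was at 50.1, 85.5 and 137 CPM with lacZ RNAi and at 5.34, 6.69 and 9.86 CPM in the libraries labelled NELF-E RNAi. It was at 35.9, 133 and 205 CPM in the controls and at 30.5, 30.1 and 14.5 CPM in the libraries labelled 4EHP RNAi. The groups did not overlap in either table, but control replicate 1 lay close to the knockdown libraries. Geometric means in the comparison groups were 20.0 times those of the libraries labelled NELF-E RNAi and 6.30 times those of the libraries labelled 4EHP RNAi. The 4EHP difference was −2.59 on the log2 scale (SE 0.98, adjusted p = 0.456, limma, and 0.0140 by DESeq2). GstT1, GstT2 and GstT3 overlapped between groups after scaling in both tables, with log2 fold changes from −1.0 to 0.35, and DESeq2 called GstT3 lower for NELF-E RNAi (log2 fold change −1.27, adjusted p = 0.0425). GstT3 was at 7.71, 9.84 and 13.0 CPM with lacZ RNAi and at 7.97, 7.17 and 8.36 CPM in the libraries labelled NELF-E RNAi, which overlapped. It was at 6.92, 17.5 and 18.2 CPM in the controls and at 20.6, 31.7 and 26.5 CPM in the libraries labelled 4EHP RNAi, apart as deposited.

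Of the omega genes, GstO3 was at 247, 251 and 207 CPM with lacZ RNAi and at 169, 106 and 177 CPM in the libraries labelled NELF-E RNAi. Its log2 fold change was −1.42 (SE 0.42, adjusted p = 0.114, limma) and −1.53 by DESeq2 (adjusted p = 0.00398). In the 4EHP table it was at 233, 207 and 371 CPM in the controls and at 163, 210.0 and 230 CPM in the libraries labelled 4EHP RNAi, which overlapped as deposited. GstO1 was at 75.3, 65.4 and 2.50 CPM in the controls and at 59.96, 115.1 and 87.5 CPM in the libraries labelled 4EHP RNAi. It was at 63.6, 11.6 and 34.9 CPM with lacZ RNAi and at 47.4, 46.0 and 53.5 CPM in the libraries labelled NELF-E RNAi. Its lowest library in each table was also the one with the lowest summed testis markers, which were at 34.3 CPM in control replicate 3 and 530.0 CPM in lacZ RNAi replicate 2, and their part in the level of GstO1 was not tested. GstO2, between GstO3 and GstO1, was at 49.2, 48.6 and 28.4 CPM in the controls against 43.5, 69.98 and 52.5 CPM, and at 42.9, 17.6 and 27.9 CPM with lacZ RNAi against 41.5, 35.6 and 44.6 CPM.

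GstS1 was at 719, 642 and 297 CPM in the controls and at 665, 620.1 and 643 CPM in the libraries labelled 4EHP RNAi, with a log2 fold change of −0.27 (SE 0.33, adjusted p = 0.717, limma). It was at 633, 453 and 492 CPM with lacZ RNAi and at 816, 769 and 711 CPM in the libraries labelled NELF-E RNAi, and the order of the groups was lost with scaling (log2 fold change −0.20, SE 0.43, adjusted p = 0.781, limma). GstZ1 was at 8.49, 8.84 and 17.3 CPM in the controls against 15.7, 17.1 and 12.4 CPM, and at 4.92, 6.38 and 6.40 CPM with lacZ RNAi against 5.86, 5.78 and 7.90 CPM, overlapping in both tables. It had log2 fold changes of −0.15 (SE 0.64) and −0.55 (SE 0.38), neither called. GstZ2 was at 3.99 CPM in control replicate 1 and at 0.040 to 0.488 CPM in the other 11 libraries.

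Over all 35 members, scaled CPM did not overlap between groups for 7 higher and 6 lower members in the 4EHP table and for 9 higher and 8 lower in the NELF-E table. Among the members tested these were 5 higher and 4 lower, against 7.78% and 11% of all transcripts tested, and 4 higher and 8 lower, against 8.10% and 17.7%. The 6 members higher without overlap in both tables were GstD3, GstD4, GstD5, GstD6, GstD7 and GstE6. The 2 lower in both were GstT4 and GstO3. The 2 tables share no libraries.

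Tissue markers were set beside the delta genes. The summed level of 9 gut genes was 1.30, 2.80 and 17.4 CPM in the controls and 768, 386 and 54.0 CPM in the libraries labelled 4EHP RNAi, mainly the digestive proteases Jon65Aiv and Jon65Aiii. Of these 9 genes, 4 were tested and 0 called by limma, and DESeq2 called 2 of 4 higher, against 2.39% of transcripts. In the NELF-E table the gut sum was 0.553, 0.910 and 85.6 CPM with lacZ RNAi and 2.13, 213 and 0.502 CPM in the libraries labelled NELF-E RNAi. In the same order, GstD6 was at 0.283, 0.455 and 0.584 CPM with lacZ RNAi and at 132, 239 and 200.2 CPM in the libraries labelled NELF-E RNAi. Its highest library had the highest gut sum, while the library at 200.2 CPM had the lowest, 0.502 CPM. The lacZ RNAi library with a gut sum of 85.6 CPM held 0.584 CPM of GstD6. The summed level of 7 muscle genes was 11.2 to 69.4 CPM in the controls and 101 to 216 CPM in the libraries labelled 4EHP RNAi. There DESeq2 called 2 of the 5 muscle genes it tested higher, against 2.39% of transcripts. In the NELF-E table the muscle sum overlapped between groups, and DESeq2 called 1 of 6 tested lower, against 9.71%. The summed level of 6 haemocyte genes was 26.1 to 61.4 CPM in the controls and 65.0 to 117 CPM in the libraries labelled 4EHP RNAi. It was 25.6 to 111 CPM with lacZ RNAi against 40.2 to 53.7 CPM, where DESeq2 called 3 of 5 tested lower, against 9.71%. The summed level of 5 Malpighian tubule genes was 4.14 to 68.5 CPM in the controls and 51.3 to 75.3 CPM in the libraries labelled 4EHP RNAi. That of 6 salivary gland genes was 13.8 to 560.1 CPM and 112 to 581 CPM in the same groups. Both sums overlapped between groups in this table and in the NELF-E table. The part of gut, muscle, haemocyte, Malpighian tubule or salivary gland RNA in the delta genes was not tested. In bulk tissue, fewer cells of a type and less RNA per cell cannot be told apart. The late larval fat body genes Fbp1, which encodes a component of the storage protein receptor, and Fbp2 were lower in both knockdown groups, Fbp1 at 111893 to 146327 CPM in the controls and 9122 to 26119 CPM in the libraries labelled 4EHP RNAi. Neither was called by limma (adjusted p = 0.157 for both with 4EHP RNAi, 0.0838 and 0.136 with NELF-E RNAi), and DESeq2 called both lower in both contrasts, with log2 fold changes from −4.04 to −3.17. They were 2 of 7 fat body genes listed, of which limma called 0 in either contrast. DESeq2 called 3 of the 7 lower with 4EHP RNAi, against 2.1% of transcripts, and 2 with NELF-E RNAi, against 9.71%, and 0 higher. Lsp2, another of the 7, had log2 fold changes of 0.11 (SE 0.60) and −0.35 (SE 0.82).

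Genes that supply or regulate GST enzymes were looked up as lists. Of 7 genes of glutathione synthesis and recycling, 5 were tested and 0 called by limma in either contrast, where DESeq2 called Ggt-1, which encodes a gamma-glutamyl transpeptidase, lower for NELF-E RNAi (log2 fold change −2.58, adjusted p = 3.43e-05). Ggt-1 was at 2.45 to 14.9 CPM with lacZ RNAi and at 1.97 to 2.58 CPM in the libraries labelled NELF-E RNAi, which overlapped. Gclc, the catalytic subunit of the rate-limiting enzyme of glutathione synthesis, had log2 fold changes of 0.41 (SE 0.32) and 0.59 (SE 0.26). Of 4 regulators, cnc, Keap1, maf-S and Hr96, all were tested and 0 called by limma or DESeq2 in either contrast. cnc, whose CncC isoform activates detoxification genes, had log2 fold changes of −0.36 (SE 0.34) and −0.58 (SE 0.37), and its inhibitor Keap1 −0.78 (SE 0.67) and −0.92 (SE 0.33).

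Of 9 other detoxification enzymes listed, 6 were tested for NELF-E RNAi. Of these 5 fell, against 2.45% of all transcripts, and 0 rose, against 1.99%. The list median was −2.61 against −0.05 over all transcripts. Jheh3, a juvenile hormone epoxide hydrolase, was at 67.0 to 111 CPM with lacZ RNAi and at 4.61 to 6.12 CPM in the libraries labelled NELF-E RNAi (log2 fold change −4.43, SE 0.44, adjusted p = 0.00200, limma). Cyp4e3, a cytochrome P450, had a log2 fold change of −4.43 (SE 0.51, adjusted p = 0.00350, limma), and Cyp6a8, Jheh1 and Jheh2 fell as well. For 4EHP RNAi 0 of 6 were called by limma and Jheh2 was called lower by DESeq2, with a list median of −1.79 against 0.15. The eye pigment relative se was at 0.603 to 1.58 CPM in the comparison libraries and at 0.117 to 0.347 CPM in the libraries labelled 4EHP RNAi or NELF-E RNAi, below the level tested. It was 1 of 5 other glutathione transferase relatives listed, of which 4 were tested and 0 called by limma in either contrast. DESeq2 called 1 of the 4 lower with NELF-E RNAi, against 9.71% of transcripts, and 0 with 4EHP RNAi.

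The TRIBE table held 89 sites in 26 of the 35 GST genes, 53 in coding sequence, 19 in 5′ UTRs, 9 in 3′ UTRs and 8 in introns. The readout is the share of G among A and G reads, since ADAR changes A to inosine, which is read as G. The authors' list had been filtered by a comparison of these libraries, so the set favours 4EHP-ADAR. In 83 of the 89 sites the pooled G share was at most 5% with either construct. All sites of GstD1 to GstD6 and GstE6 were among these 83. The 2 GstD3 sites held 0 to 2 G reads of 297 to 1748 reads in each library. In a quasi-binomial model of the share (at least 20 reads in every library, dispersion moderated across sites), 68 GST sites were tested and 2 called, against 1.16% of 69874 sites. They were a coding site of GstT3 (dm6, X, 20469118) and a coding site of GstZ1 (dm6, 3R, 9456010).

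The GstT3 site had a G share of 94.8%, 96.3% and 65.4% over 211, 81 and 162 reads with 4EHP-ADAR and of 30.6%, 10.2% and 0% over 222, 108 and 84 reads with the mutant fusion. The groups did not overlap, with means of 85.5% ± 17.4 and 13.6% ± 15.6 (SD, n = 3). The GstZ1 site had 73.2%, 97.3% and 90.9% against 65.0%, 65.5% and 79.6%, which overlapped. Both calls used a spread that low-share sites set. The spread of the GstT3 site between libraries was 28.9 times, and that of the GstZ1 site 7.00 times, what binomial counting gives, and with each site's own dispersion neither was called (adjusted p = 0.486 for both). The table holds no DNA reads or unedited libraries, so G reads from editing and from the genome cannot be told apart. A 3′ UTR site of GstT1 (dm6, 2R, 9607146) had 40.7% to 60% against 27.3% to 31.3%. It was covered by only 11 reads in its shallowest library and was not tested.

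Read depth at these sites varied between the TRIBE groups for a few members. Relative to the median site of its library, the 2 GstD3 sites were covered 3.23 to 7.23 times with 4EHP-ADAR and 12.0 to 31.6 times with the mutant fusion. The GstD4 site was covered 1.71 to 2.58 times against 4.06 to 5.72 times. GstD5 and GstD6 sites overlapped between the groups, at 0.215 to 0.442 times and 0.280 to 1.39 times. Of the 26 genes compared, 6 were higher without overlap with the mutant fusion, 1 was lower and 19 overlapped, and none had an adjusted p under 0.371 by the exact permutation test, which allows no p under 0.1. Depth at the sites of other genes was not compared in this way. These counts therefore have no share over all genes beside them and are not a result about the family.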

How the data were processed

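Fat body RNA was measured in 18 libraries in 6 groups of 3. For RNA-seq the authors deposited CPM (each gene's reads relative to all reads on genes in the library) with no factor between libraries. The submitters' processing notes name STAR, featureCounts, DESeq2 and dm6, with no role given, and strand and multi-mapping settings are not given in the sources used here. For TRIBE the authors deposited base counts per site (FLEXBAR, HISAT2, JACUSA) and a score of the authors' own comparison, which was not used. Positions were raised by 1, since the table counts from 0.

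CPM values were whole multiples of 1 read in 100% of cases (tolerance at most 0.097 reads), which gave depth and reads. The main test was a trended eBayes fit in limma 3.58.1 under R 4.3.3, on log2(CPM / median-of-ratios factor + 1), of genes averaging 5 CPM or more, with a Benjamini-Hochberg threshold of 0.05, each table by itself. Fold changes on this scale understate those of low genes. Alternatives on recovered reads were DESeq2 1.42.0 (Wald test of genes with a baseMean above 350, the filter in the study's methods) and the quasi-likelihood test of edgeR 4.0.16 with TMM factors. Others were each library left out, the replicate block, array weights, unscaled CPM, a minimum mean of 1 CPM or none, and a pseudocount of 0.1 or 5. The G share of each TRIBE site with at least 20 reads was tested by quasi-binomial regression, its dispersion moderated by squeezeVar, with sites that held G reads setting the prior, where the plan had been all tested sites. The RNA-seq and TRIBE fits were tested on simulated data.

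Values in every library are given for members called by limma or DESeq2, their nearest GST neighbours and the highest member of each class, apart from GstE4 and GstT1. GstE4, next to GstE3, is given by its range. GstT1, the theta gene with the highest median per kb in the controls, is given by its change. The members, gene lists and rule were chosen with earlier results of these data known. Gene positions come from the BDGP6.54 annotation (dm6 coordinates). All 35 members matched it. Promoter and protein sequences were not used here. Nothing beyond the triplicate labels shows how separate the pools were, so p-values measure the spread between these libraries.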

Additional observations from a re-analysis of the deposited data

How the results depend on the processing

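The number of GST genes called higher with 4EHP RNAi was 0 by limma, as it was for all 8584 transcripts. It was 4 in CPM as deposited (71 of 8584 transcripts) and 1 with a pseudocount of 5 (5 of 8584). With array weights it was 8 (1121 of 8584) and by DESeq2 4 (202 of 8438). With a library left out it was 0 to 7, where 7 was without control replicate 3 (458 of 8723). The number called lower with 4EHP RNAi was 0, and 2 both with array weights (1062 of 8584) and by DESeq2 (177 of 8438). It was 0 with any library left out. With NELF-E RNAi, 4 were called higher (167 of 8371 transcripts), and 3 to 5 with a library left out. The number called lower was 1 (205 of 8371), against 12 with array weights (2526 of 8371) and 8 by DESeq2 (907 of 9342). It was 1 to 10 with a library left out, where 10 was without lacZ RNAi replicate 1 (1978 of 8322). With no filter 5 of 35 members tested were called higher (199 of 16193 transcripts), GstD5 and GstD7 with GstD4, GstD6 and GstE6 but not GstD3. With a mean of at least 1 CPM they were 6 of 28 (224 of 10548).

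The replicate block gave 7 members lower with NELF-E RNAi (709 of 8371 transcripts) and left 4 higher (313 of 8371). It called 0 members and 0 transcripts in either direction with 4EHP RNAi. Samples of the same number deviated together with correlations of 0.12, 0.01 and −0.17 in the 4EHP table and 0.30, 0.19 and −0.21 in the NELF-E table. For samples of unlike number the correlations ran from −0.278 to 0.167 and from −0.387 to 0.415. With 3 libraries a group these values cannot settle whether the numbers pair the samples.

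All transcripts called higher and lower numbered 0 and 0 by limma for 4EHP RNAi, 202 and 177 by DESeq2, and 458 and 119 without control replicate 3. For NELF-E RNAi they numbered 167 and 205 by limma, 337 and 173 in CPM as deposited, 2016 and 2526 with array weights, 315 and 907 by DESeq2, 313 and 709 with the replicate block, and 1454 and 1978 without lacZ RNAi replicate 1. Of the single-gene values, 491 kept their direction and side of the threshold, 55 came past it, 4 fell short of it and 35 changed sign, none of them past the threshold in either fit. In CPM as deposited the log2 fold change turned to 0.25 for GstE7, 0.20 for GstE8, 0.40 for GstO2, 0.32 for GstS1, 0.14 for GstT1 and 0.42 for GstZ1 with 4EHP RNAi, and to 0.26 for GstE3, 0.53 for GstO2, 0.55 for GstS1, 0.27 for GstT1 and 0.12 for GstZ1 with NELF-E RNAi. With array weights it turned to 0.14 for GstE7, 0.24 for GstE8, 0.018 for GstE11 and 0.37 for GstZ1 with 4EHP RNAi and to −0.34 for GstD1 and −0.86 for GstE7 with NELF-E RNAi, and by DESeq2 to −0.024 for GstD1 and −8e-04 for GstT3 with 4EHP RNAi. With a library left out the signs changed within −0.23 to 0.92 for GstD1, −1.16 to 0.64 for GstE7, −1.0 to 0.47 for GstE8, −1.63 to 0.018 for GstE9, −1.22 to 0.058 for GstE11, −0.34 to 0.031 for GstO2, −0.33 to 1.04 for GstT3 and −0.58 to 0.61 for GstZ1 with 4EHP RNAi. With NELF-E RNAi they did so within −0.27 to 0.58 for GstD1, −1.11 to 0.042 for GstE3, −0.54 to 0.41 for GstE7, −0.43 to 0.054 for GstS1 and −0.89 to 0.018 for GstT1. The 2 TRIBE sites called became 0 with the site's own dispersion and 0 when the prior came from sites whose variance was 5 or more, and stayed 2 with a prior from all tested sites, all chosen after seeing the data, and 1 to 2 with a library left out. The cause of these differences was not tested.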
